A study of Mus musculus with 70 samples.

Results

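The genes described here are 10 of the 55487 named in each count table: Fos, Fosb, Jun, Junb, Egr1, Klf2, Klf4, Btg2, Ier2 and Atf3. They are immediate early genes, together with Atf3 and Klf4, and were chosen by their symbols after earlier results of these libraries were known, among them their values over the treatment groups and the days. Their differences between treatments and between days are therefore given as a description, with no p. All 10 symbols were found on a single line of each table, and all 10 passed the filter on low counts in every fit.

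Immediate early genes are transcribed within minutes of a signal such as a growth factor, a stress or a wound, from transcription factors that already sit in the cell, and their RNAs are short-lived. Many of their products are themselves transcription factors: Fos, Fosb, Jun and Junb pair as AP-1 dimers, Egr1 is a zinc finger activator induced by MAP kinase signaling, and Atf3 is a stress-induced partner of the Jun proteins. Klf2 and Klf4 are Krüppel-like zinc finger factors, Klf2 being known for quiescence in T cells and endothelium and Klf4 for monocytes and epithelial differentiation. Btg2 restrains proliferation, and Ier2 is a small nuclear protein induced by serum. Such genes are also known to respond to the handling of tissue, and these tumors were digested with collagenase and hyaluronidase at body temperature and with trypsin before the sort.

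RNA was measured in 70 libraries of cells sorted from tumors of B16F10, a mouse melanoma line, grown under the skin of both flanks of male and female C57BL/6 mice that were 6 to 8 weeks old. Control tumors came from mice given a sham ablation. Histotripsy-treated tumors had most of their volume broken up mechanically with focused ultrasound, and histotripsy-abscopal tumors are the untreated ones on the opposite flank of the treated mice. CD45, the product of Ptprc, marks blood-derived cells, so CD45+ libraries hold tumor-infiltrating immune cells and CD45- libraries hold melanoma cells with any other cell that lacks it. The CD45- libraries numbered 4 control, 7 treated and 7 abscopal on day 3 after ablation and 11, 3 and 4 on day 7. The CD45+ libraries numbered 4, 6 and 7 on day 3 and 10, 3 and 4 on day 7. Neither sex nor a batch is given for a library, groups were not randomized, and nothing ties a library to a mouse, so the spread measured is that between libraries.

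The libraries held 887798 to 3820705 counts. The sort was visible in the markers: Ptprc stood between 651 and 1252 counts per 1000000 of the library (CPM) in CD45+ libraries and at most at 1.48 CPM in CD45- libraries, while 7 melanoma markers summed to between 23402 and 36892 CPM in CD45- libraries. In 2 of the 34 CD45+ libraries, both abscopal on day 3 (replicates 1 and 4), the melanoma sum stood at 1169 and 2278 CPM, against at most 473 CPM in the others. QuantSeq counts a tag near the poly(A) end of each RNA, so counts do not scale with transcript length and CPM can be set side by side between genes, although the efficiency of tagging can differ. Fold changes are from edgeR with TMM scaling, a factor per library that sets the bulk of genes to no change. In sorted bulk RNA, fewer cells of a type and less RNA per cell cannot be told apart.

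The stretches before the start sites are shown because cyclic AMP response elements (CRE) in such promoters are a textbook route of rapid induction. RefSeq promoters of GRCm38.p6 were at hand for 8 of the 10 genes, Egr1 and Ier2 having none here. The 250 bases before the start were searched on both strands for the CRE half-site TGACG, for the full CRE TGACGTCA, which contains the half-site on both strands, for the AP-1 site TGANTCA, for TATAA and for the CArG box. The half-site was found in 7 of the 8, all but Jun, and in 17.8% of all 32851 promoters. The windows are 18 to 30 bases long, written 5′ to 3′ on the strand of the gene, with the half-site in capitals in whichever direction it reads:
Btg2, chr1:134079303-134079332, minus strand: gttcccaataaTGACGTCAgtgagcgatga
Atf3, chr1:191183334-191183351, minus strand: taatagcattaCGTCAgc
Klf4, chr4:55532692-55532718, minus strand: tgcctggctggCGTCAcggcctggccc
Fosb, chr7:19310090-19310116, minus strand: ggagttgcgggTGACGcaagcgcgggg
Klf2, chr8:72318812-72318836, plus strand: ctggtttgtTGACGccgtcgccata
Junb, chr8:84978839-84978865, minus strand: cttcctgacagTGACGcgagccgcctc
Fos, chr12:85473750-85473776, plus strand: gggcgtagagtTGACGacagagcgccc
Fos, chr12:85473813-85473839, plus strand: gttccgcccagTGACGtaggaagtcca

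Btg2 alone among the 8 had the full CRE, 166 bases before its start, which 1.55% of all promoters held. The half-site of Atf3 began 7 bases before the start, that of Fosb 60, the nearer of the pair in Fos 66, that of Junb 106, that of Klf4 232 and that of Klf2 241. TATAA was found in Klf4, Klf2 and Fos, and in 22.8% of all promoters. The AP-1 site and the CArG box were found in 0 of the 8, and in 6.75% and 1.47% of all. A match says only that these letters are there. In the annotation, Jun overlaps Junos, Junb overlaps Prdx2 and Atf3 overlaps Gm24748, each on the other strand, and the strand setting of the counting is not given in the sources used here, so reads of these pairs cannot be told apart. The other 7 genes overlap no annotated gene.

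Most of the genes stood higher in immune cells than in the CD45- fraction. In control tumors, 9 of the 10 were called higher in CD45+ than in CD45- cells on day 3 and 7 of the 10 on day 7. Of all genes tested, 34.5% were called higher in CD45+ cells on day 3 and 42.1% on day 7, and 65.2% and 80.4% were called in either direction. This comparison was not used to choose the genes. CD45+ and CD45- libraries may come from the same tumors, which the labels do not state, and the fits treat them as independent. The SE and p values between fractions leave out any such pairing.

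Btg2 differed most. In CD45- control libraries of day 3 it stood at 4.94, 8.92, 12.9 and 15.4 CPM, and in the CD45+ ones at 325, 477, 730 and 749 CPM. The groups were far apart, by a log2 difference of 5.90 ± 0.40 (SE; edgeR adjusted p = 3.11e-15), or 59.6-fold, and by 5.69 ± 0.23 on day 7 (edgeR adjusted p = 6.2e-24). Junb, the AP-1 subunit that often opposes Jun, stood at 144 ± 14.9 CPM (SD, n = 4) in CD45- and 1461 ± 163 CPM (SD, n = 4) in CD45+ control cells of day 3, which on the TMM scale is 11.4-fold (log2 3.51 ± 0.27, SE). Egr1 was 10.5-fold higher in CD45+ cells (log2 3.39 ± 0.44), Atf3 9.81-fold (3.29 ± 0.23), Ier2 7.11-fold (2.83 ± 0.19) and Klf2 5.54-fold (2.47 ± 0.42). These 6 were called on both days, at edgeR adjusted p of 3.67e-06 or less, and in each fit that left out 1 library. On day 7 their log2 differences were 5.69, 3.58, 3.46, 2.75, 2.41 and 1.52 in the order just given.

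Jun, Fos, Fosb and Klf4 were much closer between the fractions. Fos was higher in CD45+ cells by 0.83 ± 0.24 (SE) on the log2 scale on day 3 and by 0.47 ± 0.19 on day 7, called on both days. Fosb (0.64 ± 0.25) and Jun (0.58 ± 0.24) were called on day 3, with edgeR adjusted p of 0.0267 and 0.0303, but each lost the call in 4 of 8 fits that left out 1 control library of day 3: without CD45+ replicate 2 or CD45- replicates 1 or 2 for both, and without CD45+ replicate 1 for Fosb or 4 for Jun. On day 7 the log2 difference of Fosb was -0.01 ± 0.22, that of Jun 0.24 ± 0.17 and that of Klf4 -0.21 ± 0.14, none of them called. Klf4, the member not called on day 3 (0.37 ± 0.20, edgeR adjusted p = 0.0976), stood at 230 ± 48.8 CPM (SD, n = 4) in CD45- and 262 ± 72.6 CPM (SD, n = 4) in CD45+ controls of day 3. With library totals in place of TMM the calls of Fosb and Jun on day 3 and of Fos on day 7 were lost, Klf4 on day 7 was called lower in CD45+ cells, and the median of all genes moved from 0.04 to -0.14 on day 3 and from 0.05 to -0.18 on day 7 (log2).

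The order of the levels was as follows, as a description. In CD45- cells, the mean of the 6 group means ran from Jun (671 CPM) over Klf4 (360), Fos (279), Junb (161), Fosb (151), Klf2 (116), Egr1 (97.0), Atf3 (84.4) and Ier2 (25.1) to Btg2 (17.5). In CD45+ cells it ran from Junb (1535 CPM) over Egr1 (768), Jun (731), Btg2 (688), Atf3 (495), Klf2 (461), Fos (412), Klf4 (336) and Fosb (168) to Ier2 (123). Each gene's range over libraries overlapped that of its neighbour in both orders.

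**Figure D1:**
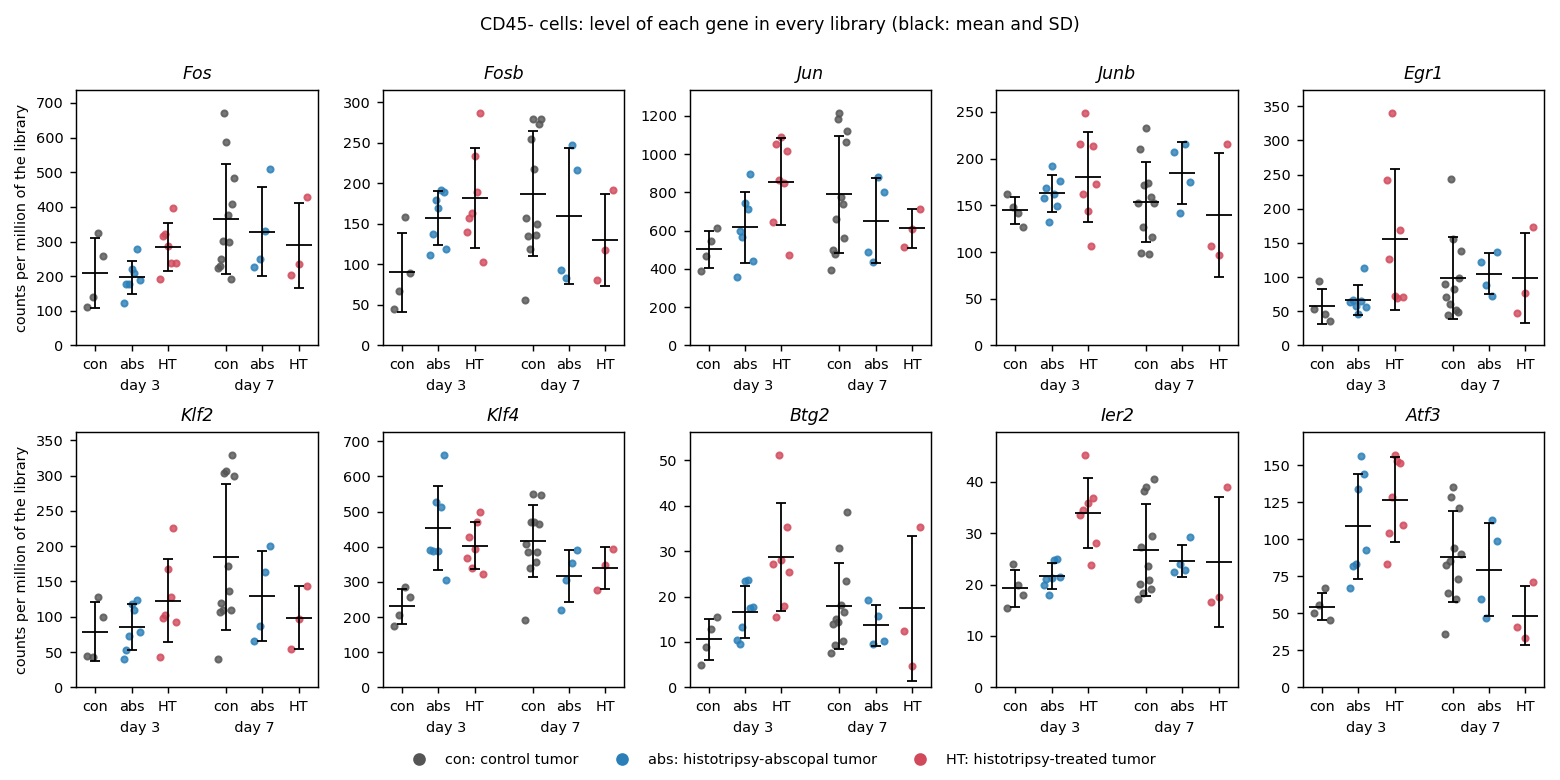
Level of each of the 10 genes in the 36 CD45- libraries, in CPM on a linear axis from 0, by day and tumor group, with a point per library and the group mean and SD in black. On day 3 the treated libraries of Atf3, Btg2 and Klf4 all lie above the 4 controls, and on day 7 the groups overlap.

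In CD45- cells on day 3, treated tumors held more of these transcripts than controls on average: all 10 log2 differences were above 0, with a median of 0.81. Atf3 rose and was the 1 member called. In the same fit 0.0916% of all genes were called (10 of 10921), a count fixed in part by the choice of the members, from which nothing is read.

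Atf3, the stress-induced partner of AP-1, stood at 50.0, 55.4, 67.2 and 45.8 CPM in the 4 controls and from 83.5 over a median of 129 to 157 CPM in the 7 treated libraries. Every treated library was above every control, a log2 difference of 1.21 ± 0.22 (SE), or 2.32-fold. The call was lost without any of control replicates 1 to 4 or treated replicate 6. Btg2 went from 4.94, 8.92, 12.9 and 15.4 CPM to between 15.6 and 51.1 CPM with a median of 27.2, also with no overlap (1.40 ± 0.34). Klf4 went from 176, 205, 284 and 256 CPM to between 321 and 499 CPM with a median of 392 (0.81 ± 0.18), again with no overlap. Here and below, the share of all genes whose groups did not overlap was not counted, and nothing is read from a lack of overlap.

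Ier2 overlapped through 1 control library. Its controls lay between 15.4 and 23.9 CPM and its treated libraries between 23.7 and 45.2 CPM, with a log2 difference of 0.81 ± 0.17. Egr1 had the largest difference of the 10 and the widest spread, with controls at 53.7, 93.9, 45.7 and 35.4 CPM and treated libraries from 68.9 over 126 to 340 CPM (1.45 ± 0.42). Fosb differed by 1.01 ± 0.26, Jun by 0.76 ± 0.23, Klf2 by 0.62 ± 0.35, Fos by 0.46 ± 0.23 and Junb by 0.32 ± 0.18, none of them called and each with overlapping groups. DESeq2 called 5 members in this comparison (Atf3, Fosb, Klf4, Btg2 and Ier2) among 46 genes, and the fit with no filter called 7 among 312.

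In abscopal tumors on day 3, Klf4 averaged 453 CPM and Atf3 109 CPM, against 403 and 127 CPM in treated tumors. Klf4 lay between 306 and 660 CPM with a median of 389 in the 7 abscopal libraries, all above the 4 controls, with a log2 difference of 1.0 ± 0.18. Atf3 lay between 67.2 and 157 CPM with a median of 93.2, overlapping the controls in its lowest library alone (1.0 ± 0.22). The log2 difference of Fosb was 0.83 ± 0.26, that of Egr1 0.21 ± 0.42, that of Ier2 0.17 ± 0.17 and that of Fos -0.06 ± 0.23. By edgeR 0 members and 0% of all genes were called, with 3 members and 567 genes (5.19%) at an unadjusted p under 0.05, and DESeq2 called 2 members (Klf4 and Atf3) among 12 genes.

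Treated and abscopal tumors were also set against each other. Egr1 differed by 1.24 ± 0.34 on the log2 scale, Btg2 by 0.79 ± 0.26 and Ier2 by 0.64 ± 0.14, and Klf4 by -0.20 ± 0.14. Of the members 0 were called by edgeR, beside 0.147% of all genes, with 5 members and 1473 genes at an unadjusted p under 0.05, and DESeq2 called 1 member, Ier2. With library totals the split of calls went from 10 higher and 6 lower to 20 and 5. Both comparisons with controls use the same 4 control libraries.

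The fibroblast markers moved with Egr1 in this fraction. The sum of 5 of them (Col1a1, Col1a2, Dcn, Lum and Pdgfra, all with counts) ranged from 16.2 to 782 CPM in controls, 102 to 631 CPM in abscopal and 46.8 to 9915 CPM in treated libraries of day 3. The 4 treated libraries with a fibroblast sum of 1558 CPM or more (replicates 1, 2, 3 and 6) had Egr1 at 242, 126, 340 and 168 CPM, and the other 3 (replicates 4, 5 and 7) at 72.8, 68.9 and 70.7 CPM, all within the range of the controls. Atf3 did not follow this order, being highest in treated replicate 4 (157 CPM), which had the lowest fibroblast sum of the treated libraries. The sum of 3 hemoglobin genes had a median of 11.4 CPM in controls, 31.4 CPM in abscopal and 39.1 CPM in treated libraries of day 3. The part of fibroblasts or of hemoglobin RNA in the differences was not tested.

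**Figure D2:**
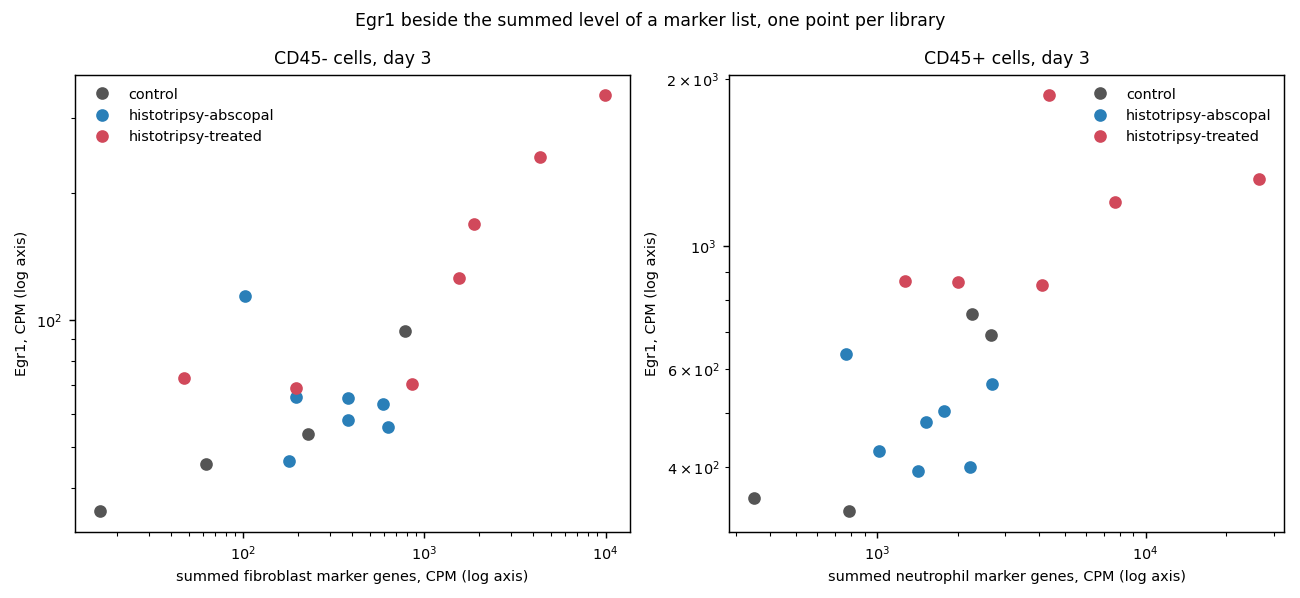
Egr1 against the summed fibroblast markers in CD45- cells (left) and the summed neutrophil markers in CD45+ cells (right) on day 3, both axes in CPM on a log scale, with a point per library. The treated CD45- libraries with fibroblast sums of 1558 to 9915 CPM have the highest Egr1, and the CD45+ treated libraries lie above both other groups, from neutrophil sums of 1271 CPM upward.

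In CD45+ cells on day 3, Egr1, Fosb, Klf2 and Klf4 rose in treated tumors over controls, and all 10 log2 differences were above 0, with a median of 0.54. The 4 calls stand beside 7.79% of all genes (800 of 10264), and nothing is read from them, since this comparison entered the choice of the members. With library totals the median of all genes moved from -0.01 to -0.22, the split of calls from 637 higher and 163 lower to 414 and 663, Klf2 lost its call and Atf3 went from 0.06 to -0.16.

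Egr1 stood at 352, 334, 756 and 692 CPM in the 4 controls and at 851 to 1869 CPM with a median of 1032 in the 6 treated libraries. The groups did not overlap, and the log2 difference was 1.38 ± 0.28 (SE), or 2.60-fold. Fosb, the AP-1 subunit closest to Fos, went from 131, 146, 109 and 106 CPM to between 161 and 313 CPM with a median of 241, again with no overlap (1.14 ± 0.17, 2.20-fold). Klf4 went from 358, 276, 220 and 194 CPM to between 316 and 485 CPM with a median of 418 (0.84 ± 0.18), and its groups overlapped through control replicate 1. These 3 kept the call in all 10 fits that left out 1 library.

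Klf2 rested on few libraries. It went from 337, 464, 361 and 370 CPM to between 364 and 1338 CPM with a median of 554, and its log2 difference of 1.09 ± 0.33 (2.14-fold) was 0.65 without treated replicate 3, where it was highest. The call was lost without any of control replicates 1 to 4 or treated replicates 2, 3 or 6. Ier2 (0.46 ± 0.17), Btg2 (0.62 ± 0.28), Junb (0.43 ± 0.25), Fos (0.41 ± 0.17) and Jun (0.28 ± 0.19) were not called. Atf3, the member called in CD45- cells, differed by 0.06 ± 0.16, with controls between 436 and 536 CPM and treated libraries between 309 and 555 CPM.

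Klf4 in abscopal tumors was the member farthest from the controls. Its 7 abscopal libraries lay between 359 and 516 CPM with a median of 449, all above the 4 controls, the lowest by less than 1 CPM (0.81 ± 0.18 on the log2 scale). Egr1 lay between 394 and 640 CPM in abscopal tumors, within the range of the controls (-0.03 ± 0.26). Fosb differed from controls by 0.56 ± 0.17, Fos by 0.47 ± 0.17, Klf2 by 0.39 ± 0.32 and Jun by 0.31 ± 0.18, and the other 4 members by between -0.16 and 0.24. edgeR called 0 members and 0% of all genes, with 3 members and 796 genes at an unadjusted p under 0.05, and DESeq2 called 1 member, Klf4, among 5 genes.

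Between treated and abscopal CD45+ cells, Egr1 (1.41 ± 0.23), Fosb (0.58 ± 0.14) and Ier2 (0.54 ± 0.14) were called, beside 5.44% of all genes. Egr1 did not overlap between the groups and kept its call whichever 1 of the 13 libraries was left out. Fosb lost the call without treated replicate 2, and Ier2 without treated replicates 2, 3 or 6 or abscopal replicates 4 or 6. Junb (0.59 ± 0.21), Btg2 (0.72 ± 0.23) and Klf2 (0.70 ± 0.28) were not called by edgeR, and DESeq2 called 4 members, Btg2 being the further one, among 719 genes. Klf4 differed by 0.03 ± 0.15, which became -0.08 with library totals, and Jun by -0.03 ± 0.16. With library totals the calls of Fosb and Ier2 were lost, the median of all genes moved from -0.03 to -0.15 and the split of calls from 500 higher and 58 lower to 346 and 89.

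Neutrophil markers moved with treatment in this fraction. The sum of 5 of them (S100a8, S100a9, Csf3r, Cxcr2 and Retnlg, all with counts) ranged from 350 to 2667 CPM in controls, 768 to 2683 CPM in abscopal and 1271 to 26467 CPM in treated libraries of day 3. The highest sum was in treated replicate 3, which also held the most Klf2 (1338 CPM) and 6663 CPM of 3 hemoglobin genes. The 2 controls with neutrophil sums of 350 and 789 CPM (replicates 1 and 2) had Egr1 at 352 and 334 CPM, and those with 2261 and 2667 CPM (replicates 3 and 4) had it at 756 and 692 CPM. Treated replicates 1 and 5, with 2005 and 1271 CPM of neutrophil markers, lay within the controls' range of that sum and had Egr1 at 862 and 865 CPM, above all controls. T cell markers ran the other way, from 716 to 1153 CPM in controls and 160 to 627 CPM in treated libraries, and the 5 macrophage markers from 2189 to 2369 and 1074 to 2807 CPM. The part of these cell types was not tested.

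**Figure D3:**
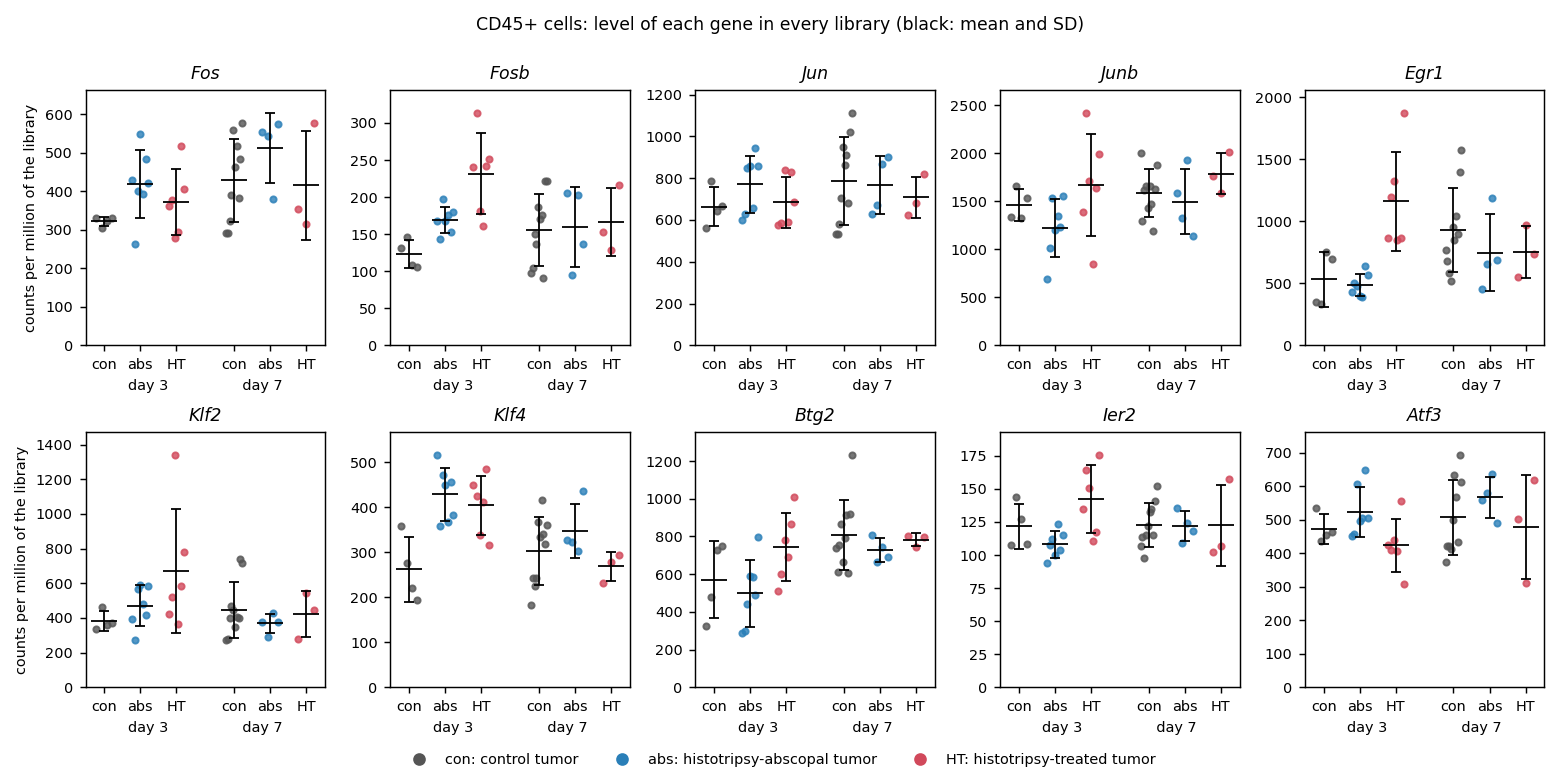
Level of each of the 10 genes in the 34 CD45+ libraries, in CPM on a linear axis from 0, by day and tumor group, with a point per library and the group mean and SD in black. On day 3 the treated libraries of Egr1 and Fosb all lie above the controls and so do the abscopal libraries of Klf4, while on day 7 the groups overlap except for Klf4 between treated and abscopal tumors.

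On day 7 no member was called in any comparison of treatments. In CD45- cells, 0 of 10 were called by edgeR and by DESeq2 in treated against control tumors, with 0% of all genes called, 669 genes and 1 member at an unadjusted p under 0.05, and a median member difference of -0.28. All 10 differences were below 0, from -0.01 for Egr1 to -0.89 ± 0.44 for Klf2 and -0.87 ± 0.30 for Atf3. Atf3 stood at 33.6, 40.6 and 71.0 CPM in the 3 treated libraries and between 35.9 and 136 CPM with a median of 85.3 in the 11 controls. Abscopal tumors differed from controls by between -0.57 (Klf2) and 0.23 (Junb), with 0 members called by either tool and 0.291% of all genes called. At an unadjusted p under 0.05 stood 1 member and 1051 genes (9.56%). Treated minus abscopal gave 0 members and 0% by either tool, with 0 members and 741 genes at an unadjusted p under 0.05, and differences between -0.66 (Atf3) and 0.30 (Btg2).

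In CD45+ cells on day 7 the differences lay on both sides of 0. Treated tumors differed by between -0.30 ± 0.30 (Egr1) and 0.17 ± 0.16 (Junb), and abscopal tumors by between -0.27 ± 0.27 (Egr1) and 0.29 ± 0.20 (Fos). Egr1 stood at 552, 974 and 735 CPM in treated libraries, at 457, 659, 1187 and 687 CPM in abscopal ones and between 522 and 1574 CPM with a median of 871 in the 10 controls. In all 3 comparisons 0 members and 0% of all genes were called by edgeR and 0 genes by DESeq2, with 0 members and 341, 806 and 291 genes at an unadjusted p under 0.05. Klf4 alone of the members did not overlap between the 3 treated (233 to 295 CPM) and 4 abscopal libraries (304 to 436 CPM), where its difference was -0.42 ± 0.24. With groups this small and no share over all genes counted, nothing is read from it.

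**Figure D4:**
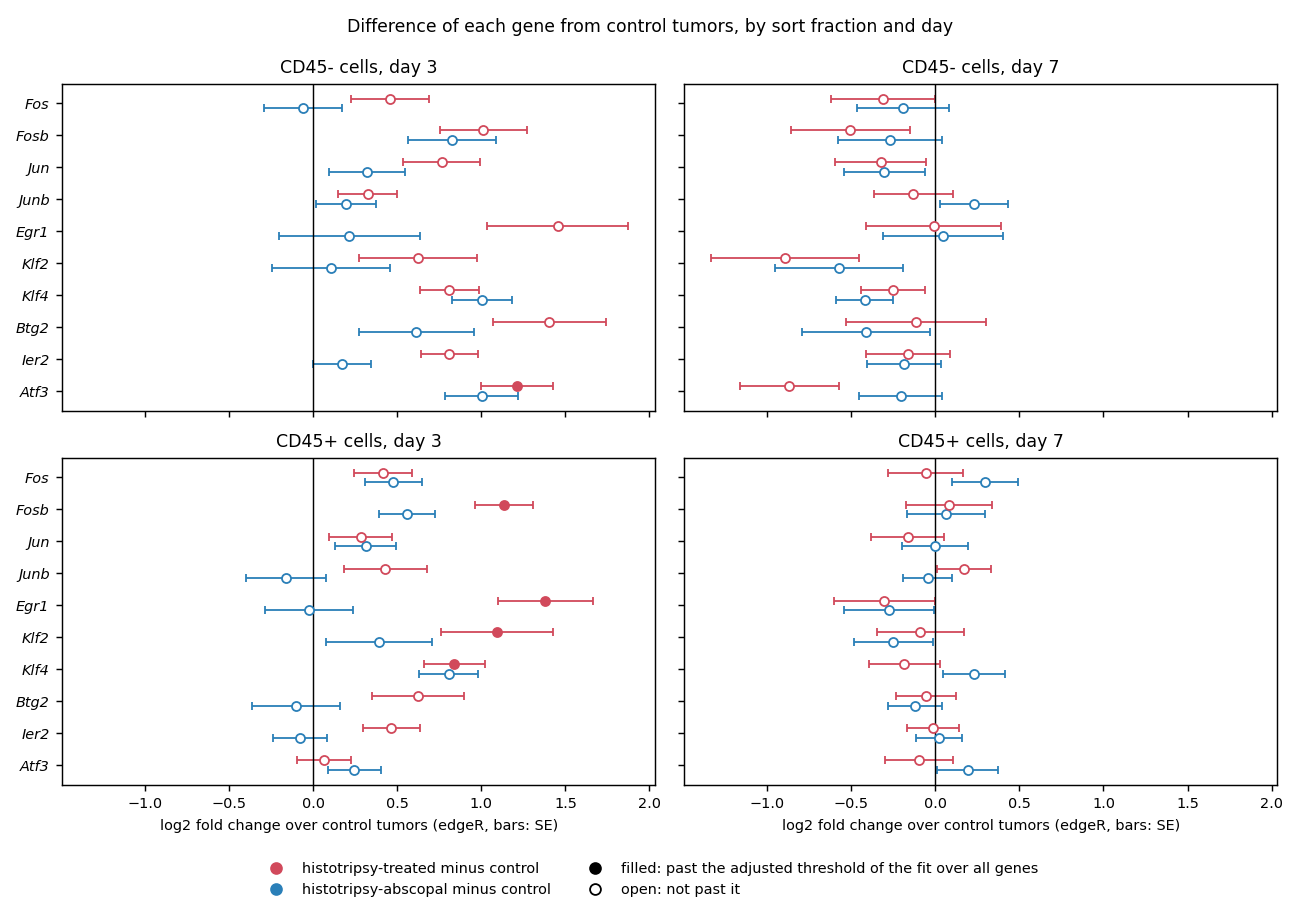
log2 fold change of each gene over control tumors with its SE, for treated (red) and abscopal (blue) tumors in the 4 tables, filled where past the adjusted threshold of 0.05 over all genes. The differences of day 3 lie mostly to the right of 0, up to 1.45, with 5 filled points, all of treated tumors, and those of day 7 lie between -0.89 and 0.29 with none filled.

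The days were then compared within each group. In CD45- control tumors all 10 members stood higher on day 7 than on day 3, by a median of 0.77 on the log2 scale, from 0.09 (Junb) to 1.22 ± 0.40 (Klf2). Klf4, at 176 to 284 CPM in the 4 controls of day 3, stood at 191 to 549 CPM with a median of 409 in the 11 of day 7 (0.85 ± 0.18). edgeR called 0 members and 0% of all genes, with 7 members and 502 genes at an unadjusted p under 0.05, and DESeq2 called Klf4, its 1 gene. The sum of 3 hemoglobin genes in these controls had a median of 11.4 CPM on day 3 and 49.6 CPM on day 7, and its part was not tested. In CD45+ controls all 10 differences were also above 0, with a median of 0.27 and the largest for Egr1 (0.83 ± 0.29). There 0 members were called by either tool, beside 0.00889% of all genes, with 3 members and 564 genes (5.01%) at an unadjusted p under 0.05.

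In treated tumors most differences had the other sign. In CD45- treated cells 9 of the 10 stood lower on day 7, Atf3 by the most (-1.38 ± 0.30). Of the members 0 were called by edgeR, beside 0.0433% of all genes, and 1 by DESeq2 (Atf3). At an unadjusted p under 0.05 stood 2 members and 861 genes (7.46%). In CD45+ treated cells all 10 differences were below 0 and Klf4 fell, from between 316 and 485 CPM to 233, 279 and 295 CPM (-0.76 ± 0.22). It was the 1 member called beside 4.14% of all genes, and the call was lost without day 3 treated replicates 2 or 3 and without any of the 3 treated libraries of day 7. The call of Klf4 was also lost with library totals and with the replicate number as a block. With library totals 5 of the 10 turned positive (Fos, Jun, Junb, Btg2 and Atf3), the median of all genes moved from 0.01 to 0.19 and the split of calls from 91 higher and 375 lower to 282 and 224. In abscopal tumors 0 members were called, beside 0.026% of all genes in CD45- cells (DESeq2: 0 members) and 0.747% in CD45+ cells (DESeq2: 0 members), with 2 members at an unadjusted p under 0.05 in each. There Klf4 differed by -0.58 ± 0.19 in CD45- and -0.32 ± 0.19 in CD45+ cells.

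An interaction term asked whether the effect of treatment was the same on both days. In CD45+ cells the treated minus control difference changed from day 3 to day 7 by -1.65 ± 0.44 on the log2 scale for Egr1 and by -1.01 ± 0.28 for Klf4, and both were called beside 2.68% of all genes. Fosb (-1.03 ± 0.33) and Klf2 (-1.16 ± 0.45) were not called by edgeR, and DESeq2 called 3 members (Egr1, Klf4 and Fosb) among 448 genes. With library totals both calls were lost, the median of all genes moved from 0.01 to 0.22 and the split of calls from 29 higher and 272 lower to 75 and 161, and Atf3 went from -0.14 to 0.08. Egr1 lost the call without day 3 control replicates 1 or 2, day 3 treated replicates 3 or 6, or day 7 treated replicates 1 or 3. Klf4 kept it in 9 of 23 such fits: it was lost without day 3 control replicates 2, 3 or 4, day 3 treated replicates 2 or 3, day 7 control replicates 5 to 10, or any treated library of day 7.

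In CD45- cells the same interaction was below 0 for all 10 members, with a median of -1.27, from -0.45 (Junb) to -2.08 ± 0.39 (Atf3). None was called by edgeR, beside 0% of all genes, with 8 members and 695 genes at an unadjusted p under 0.05, and DESeq2 called Atf3 among 12 genes. For abscopal tumors Klf4 differed between the days by -1.43 ± 0.26 and was the 1 gene called of 11548 (0.00866%), a call lost with library totals and in 14 of 26 fits that left out 1 library. Those were day 3 control replicates 1, 2 and 4, day 3 abscopal replicates 3, 5 and 6, day 7 control replicates 2, 3, 7, 10 and 11, and day 7 abscopal replicates 1 to 3. In CD45+ abscopal cells 0 members and 0% of all genes were called, with Klf4 at -0.57 ± 0.26, and DESeq2 called 0 members. At an unadjusted p under 0.05 stood 1 member and 729 genes (6.48%). The controls of both days enter each of these interactions.

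The members also varied together between libraries of the same group. After each group's mean of log2(CPM + 1) was taken off, all 45 pairs of members correlated above 0 over the 36 CD45- libraries, with a median r of 0.60, from 0.02 for Junb and Klf4 to 0.89 for Fosb and Klf2. Over the 34 CD45+ libraries 43 of 45 did, with a median of 0.43, from -0.29 for Junb and Klf4 to 0.69 for Jun and Klf2. Junb and Klf4 were thus the least alike pair in both fractions. These correlations are descriptions over libraries that share their depth and scaling, and carry no p.

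Fos followed the mean of the other 9 members most closely in CD45- cells (r = 0.86, rho = 0.86, and r = 0.85 without the 2 libraries farthest from the median), and Junb least (r = 0.37, rho = 0.34). In CD45+ cells Jun followed them most (r = 0.83, rho = 0.76) and Klf4 least (r = 0.24, rho = 0.22). The mean of all members correlated with depth at r = 0.03 in CD45- and 0.23 in CD45+ cells. Among marker sums, that of 3 hemoglobin genes was closest to it in CD45- cells (r = 0.66, rho = 0.69, and r = 0.64 without the 2 farthest libraries), at sums of 3.08 to 399 CPM, and those of fibroblasts and endothelium stood at -0.17 and -0.14. Single members differed there: with the fibroblast sum Egr1 had r = 0.49 (rho = 0.46, and 0.38 for r without the 2 farthest) and Klf2 r = -0.50 (rho = -0.46, and -0.51). In CD45+ cells the neutrophil sum had r = 0.62 with Egr1 (rho = 0.70, and r = 0.66 without the 2 farthest), 0.54 with Klf2 (rho = 0.50, and 0.44) and -0.20 with Klf4 (rho = -0.18, and -0.09). The NK cell sum had r = -0.61 with Egr1 (rho = -0.64, and -0.61), and the T cell sum had r = -0.45 with the mean of all members (rho = -0.31, and -0.39). What these sums had to do with the members was not tested.

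**Figure D5:**
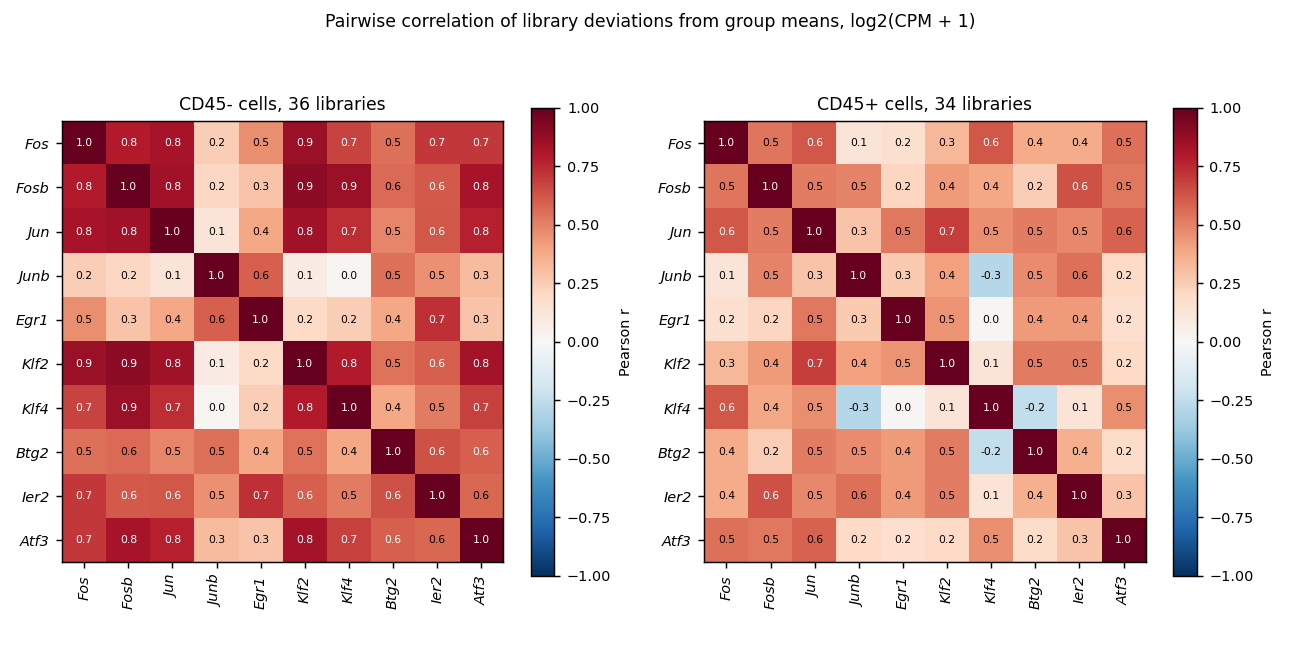
Pearson r between each pair of the 10 genes, from log2(CPM + 1) minus the mean of the library's own group, over 36 CD45- (left) and 34 CD45+ libraries (right). All pairs are above 0 in CD45- cells, lowest at 0.02 for Junb and Klf4, and in CD45+ cells Klf4 is below 0 with Junb and Btg2.

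The genes outside the 10 that varied most like their mean were Klf6 (r = 0.87, rho = 0.87), Adamts1 (0.84, 0.84), Osr2 (0.81, 0.80), Bhlhe40 (0.77, 0.80) and Rhob (0.77, 0.75) in CD45- cells, out of 8198 genes with a mean of at least 10 CPM. In CD45+ cells they were Dusp1 (0.85, 0.85), Dusp6 (0.77, 0.75), Vegfa (0.77, 0.75), Tob1 (0.77, 0.76) and Zswim8 (0.76, 0.83) out of 8225. No gene was among the first 5 of both fractions.

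Relatives of the members were read from lists that were also written with earlier results known. The adjusted p values of their genes were taken over all genes tested, describe single genes only, and give no independent support for the lists. In CD45+ cells on day 3, treated minus control, 5 of 16 other immediate early genes tested rose and 0 fell, beside the 7.79% of all genes called in either direction. They included Egr3, a relative of Egr1 (2.36 ± 0.39 on the log2 scale, edgeR adjusted p = 0.00128), and Ier3 (1.71 ± 0.27, edgeR adjusted p = 0.00119), and the list's median was 0.42 against -0.01 for all genes. Of 10 AP-1 partners 3 rose and 0 fell, with Jdp2, a repressor that pairs with Jun (1.67 ± 0.29, edgeR adjusted p = 0.00221), and Maff, a small Maf protein (1.47 ± 0.25, edgeR adjusted p = 0.00162). Of 9 feedback genes of the MAP kinases, Dusp1, a phosphatase that is itself an immediate early gene, rose (1.02 ± 0.31, edgeR adjusted p = 0.0443) and 0 fell, and the list's median was -0.16.

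Of 10 genes of the integrated stress response, the Atf4 pathway upstream of Atf3, 5 rose and 0 fell, led by Chac1 (1.43 ± 0.39, edgeR adjusted p = 0.0275) and Sesn2 (1.24 ± 0.26, edgeR adjusted p = 0.00687), while Atf3 itself differed by 0.06 there. Of 13 relatives of Klf2, Klf4 and Btg2, 3 rose and 0 fell, led by Klf7 (1.23 ± 0.33) and Klf3 (1.09 ± 0.33). Of the factors upstream of immediate early genes, such as Srf, Elk1, Creb1 and the MAP kinases, 0 were called in any comparison of treatments or days, by edgeR.

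In CD45- cells on day 3, treated minus control, 2 of 17 other immediate early genes rose, beside 0.0916% of all genes called, Ier5 (1.28 ± 0.25, edgeR adjusted p = 0.0445) and Sgk1 (1.14 ± 0.22, edgeR adjusted p = 0.0481), and 0 genes of the other lists were called by edgeR. In CD45+ treated minus abscopal cells of day 3, 6 of 16 other immediate early genes rose, beside 5.44% of all genes called, with Egr3 at 2.42 ± 0.31 and Ier3 at 1.59 ± 0.22, and so did Maff (1.31 ± 0.20), Jdp2 (1.08 ± 0.24), Dusp1 (1.01 ± 0.26), Klf7 (1.44 ± 0.27), Klf10 (0.75 ± 0.19), Chac1 (1.13 ± 0.32) and Sesn2 (0.78 ± 0.21), while Dusp4 fell (-0.92 ± 0.20). The interaction with the day in CD45+ treated cells was called below 0 for 3 of 16 other immediate early genes, beside 2.68% of all genes called, with Egr3 at -2.58 ± 0.48 and Ier3 at -2.0 ± 0.42, and for Jdp2 (-1.69 ± 0.36), Maff (-1.64 ± 0.33), Sesn2 (-1.46 ± 0.38) and Klf10 (-1.09 ± 0.30). From day 3 to day 7, Klf10, a target of TGF-beta, fell in both treated fractions, by 1.02 ± 0.19 on the log2 scale in CD45- cells (edgeR adjusted p = 0.0271) and by 1.14 ± 0.24 in CD45+ cells (edgeR adjusted p = 0.00506). In CD45+ treated cells Egr3 (-1.87 ± 0.37), Jdp2 (-1.39 ± 0.28), Maff (-1.25 ± 0.26) and Atf4 (-0.61 ± 0.15) fell as well.

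Between the fractions in control tumors of day 3, 12 of 17 other immediate early genes were higher in CD45+ cells and 2 lower, beside 34.5% of all genes called higher and 65.2% in either direction, with Zfp36, which destabilizes short-lived RNAs, at 5.51 ± 0.34 and Ier5 at 5.17 ± 0.30 on the log2 scale. Ccn1, a matrix protein, had 0 or 1 count in each CD45+ control library of day 3 and stood between 17.3 and 56.9 CPM in CD45- ones, and Myc was lower in CD45+ cells (-1.06 ± 0.37). In the stress response list 3 of 10 genes were higher and 4 lower, near the shares of all genes, with Cebpb (3.89 ± 0.26) and Ppp1r15a (2.91 ± 0.27) higher in CD45+ cells and Trib3 (-3.43 ± 0.47) and Asns (-3.14 ± 0.28) lower. In the MAP kinase feedback list 4 of 10 were higher and 3 lower, also near the shares of all genes, with Dusp5 at 5.93 ± 0.28 and Spry1 at -1.63 ± 0.52.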

How the data were processed

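RNA of flow-sorted CD45+ and CD45- tumor cells was made into QuantSeq libraries. Per the labels and methods, the authors trimmed reads with Trim Galore 0.5.0, aligned them with STAR 2.6.0, collapsed unique molecular identifiers, used featureCounts for the genes of GRCm38 and deposited whole-number counts without normalization, in 4 tables (a fraction and day each). The strand setting is not given in the sources used here. In both CD45+ tables an unnamed line equal to 100% of the column total was left out. Depth was 887798 to 3820705 counts per library, and values of the scarcest members (Btg2 in CD45- cells) are the least precise.

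The 10 members and all gene lists were chosen with earlier results of these data known. CPM was taken over the whole library. Counts were tested with edgeR 4.0.16 in R 4.3.3: filterByExpr (minimum count 10, minimum total 15), TMM, a quasi-likelihood fit with a term for each group, and Benjamini-Hochberg adjustment at 0.05 over all genes tested; "called" means past it. Treatments were fitted per table, days per fraction, fractions per day. SE is the log2 fold change over the root of the F value. The treatment fits were tested on simulated data. Alternatives were DESeq2 1.42.0, library totals, no filter, the replicate number as a block, each library left out in turn, TMM-scaled CPM and a pseudocount of 0.5. No 2 libraries of a group agreed within sampling noise (smallest chi-square per degree of freedom 2.07 over 208 pairs).

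All members are named; from each list, up to 2 called genes per comparison and direction with the largest change; and the 5 genes most like the members. Promoters are RefSeq's, of GRCm38.p6, and 8 members matched.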

Additional observations from a re-analysis of the deposited data

Results flagged for a closer look

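In 90 checks of a member in a group of 4 to 10 libraries, 4 libraries lay apart from the rest of their group by Dixon's criterion, about what chance gives at 1 in 20. Btg2 stood at 1231 CPM in CD45+ day 7 control replicate 10, with the next library at 917 CPM. Fos stood at 380 CPM in CD45+ day 7 abscopal replicate 3, below the next at 543 CPM, and Klf4 at 436 CPM in replicate 4 of that group, above the next at 326 CPM. Egr1 stood at 114 CPM in CD45- day 3 abscopal replicate 6, above the next at 65.8 CPM.

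The interaction of treatment with the day, in the fit over all genes, was called for Egr1 (-1.65 on the log2 scale) and Klf4 (-1.01) in CD45+ treated tumors and for Klf4 (-1.43) in CD45- abscopal tumors. Each of these calls was lost with library totals, with the replicate block and in some fits without 1 library. The comparison of the days also entered the choice of the members. The differences from controls, in the same order, were 1.38, 0.84 and 1.0 on day 3, the last not called, and -0.30, -0.19 and -0.42 on day 7, none called.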

How the results depend on the processing

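The alternatives were fixed with earlier results of these data known. Of 240 differences of members (10 genes in each comparison), 28 were called. DESeq2 added 13 calls and lost 0, library totals added 2 and lost 10, no filter added 31 and lost 1, and the replicate block added 8 and lost 5. Over 3380 refits of a difference without 1 library, 23 calls were added and 65 lost. The mean level moved by less than 1 SD in 119 of 120 cases with TMM-scaled CPM. Between the fractions of day 7 controls the sign turned for Fosb (-0.01), to 0.0590 with the replicate block and, over all fits without 1 library, from -0.104 to 0.0528, at 0.00832 or more without CD45+ replicates 1, 2 or 8 or CD45- replicates 5, 6, 7, 10 or 11, and for Jun (0.24), to -0.00208 with library totals. Only called differences and those between the fractions were screened for a turned sign. The sign of a difference between treatments or days that was not called may therefore turn under an alternative without being listed here. The cause of each change below was not tested.

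Members called in CD45- cells of day 3 were 1 for treated minus control (DESeq2 5, no filter 7, replicate block 4), 0 for abscopal minus control (2, 3 and 1) and 0 for treated minus abscopal (1, 4 and 1, and 1 with library totals). On day 7 the treated minus control count of 0 became 1 with no filter. In CD45+ cells of day 3 the abscopal minus control count of 0 became 1 with DESeq2 and 1 with no filter, and the treated minus abscopal count of 3 became 1 with library totals. For day 7 minus day 3, CD45- controls went from 0 to 1 (DESeq2) and 3 (no filter), and treated from 0 to 1 and 1. CD45+ controls went from 0 to 1 with no filter, treated from 1 to 0 (totals), 3 (no filter) and 0 (block), and abscopal from 0 to 1 with the block. The CD45- interactions went from 0 to 1 (DESeq2) and 3 (no filter) for treated and from 1 to 0 (totals), 2 (no filter) and 0 (block) for abscopal, and the CD45+ treated one from 2 to 0 (totals), 4 (no filter) and 0 (block). Without 1 library, the counts ran from 0 to 2, 0 to 1 and 0 to 2 in CD45- cells of day 3, from 3 to 5, 0 to 0 and 1 to 4 in CD45+ cells of day 3, and were 0 on day 7. Between days they ran from 0 to 1 in CD45- controls, CD45- treated, CD45+ treated and both CD45- interactions, from 0 to 3 for the CD45+ treated interaction, and were 0 in the rest. Between fractions they ran from 7 to 9 on day 3 and from 7 to 8 on day 7.

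Over all genes, CD45- day 3 calls were 10 for treated minus control (DESeq2 46, no filter 312, block 26, and 1 to 17 without 1 library), 0 for abscopal minus control (12, 15, 1, and 0 to 1) and 16 for treated minus abscopal (138, 451, 117, and 0 to 99, with 25 by totals). In CD45+ cells of day 3 they were 800 (1071, 1244, 1256, and 338 to 1112), 0 (5, 153, 1, and 0 to 1) and 558 (719, 1022, 496, and 275 to 861). The fewest of these came without CD45- control replicates 1 or 2, CD45- abscopal replicate 1, CD45+ control replicate 3 and CD45+ treated replicate 3, for the comparisons of treated tumors in the order given. On CD45- day 7 the 32 abscopal minus control calls became 11, 398, 0, and 1 to 132. For day 7 minus day 3, the calls in CD45+ treated cells (4.14% of genes) ran from 49 (without day 7 treated replicate 3) to 785 (without day 3 treated replicate 5), and the 301 of their interaction from 30 (without day 7 treated replicate 1) to 533 (without day 3 treated replicate 5), with 112 under the block. Genes most like the members numbered 4 of 5 the same in CD45- cells under either alternative, and 5 (pseudocount 0.5) and 2 (TMM-scaled CPM) in CD45+ cells.

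In CD45- cells of day 3, same-numbered libraries deviated together by a median r of 0.173 (8 of 15 pairs over 0.1), against -0.0273 for other numbers. In CD45+ cells of day 3 the values were 0.0884 (7 of 14) and -0.0167. On day 7 they were -0.0652 and -0.00252 in CD45- and 0.0554 and -0.00179 in CD45+ cells (3 of 10 pairs each). These values do not settle whether the numbers pair samples, since the labels do not say what a number marks. The block is therefore an alternative only. At 887798 to 3820705 counts a library, differences of scarce members such as Btg2 in CD45- cells were measured least precisely.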
